A study of Mus musculus with 20 samples.

Results

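The 150 genes described here peaked for a short time at 2 and 3 h of culture in cells labelled mouse spleen, whether or not the cells had received a stimulation cocktail. They were chosen on measured values. Among 9584 genes with a mean of at least 5 CPM (reads per gene relative to the total of its library), out of 41115 gene rows, each arm's mean log2(CPM + 0.5) at 2 and 3 h was taken. From it the larger of 2 baselines was subtracted, the mean over 0 to 60 min or the mean over 12 and 24 h. The score was the smaller of the values of the 2 arms, and the 150 highest scores were kept, 1.57% of the eligible genes. Every value at 0 to 60 min and at 2, 3, 12 and 24 h therefore served to choose the genes, and the rise and fall at those times are given as a description, with no test.

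The study followed 2 mice, 1 treated and 1 untreated, over 10 times from 0 min to 48 h, with 1 poly-A RNA library per arm and time. The stimulated arm is labelled LPS, IL4, TGFb, also at 0 min. The untreated arm received none of these. LPS is a bacterial ligand of Toll-like receptor 4, IL-4 a cytokine of T helper cells, and TGFb a growth factor that signals through SMAD proteins. The design text calls the mixture a stimulation cocktail for AID, the enzyme that starts antibody class switching. The labels give neither strain, genotype, age nor sex, and do not say how the cells were kept. With a single mouse behind each arm, the effects of the cocktail and of the animal cannot be told apart. In the tests between arms, times took the place of replicates, and errors and p-values measure the spread between times and not between animals. In the test of 6 h against 48 h the 2 arms took that place. Its errors measure how far the change over time differed between the arms, each a single mouse.

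Libraries held between 36873155 and 60918651 counts, and 3 counts, the limit of detection used here, correspond to 0.0492 to 0.0814 CPM (counting error only). The label spleen was checked against marker genes. Of 12 B cell markers, 10 had a mean of at least 1 CPM, and their summed level lay between 3717 and 5200 CPM in the 20 libraries. Cr2, a complement receptor of B cells, reached at most 0.283 CPM and H2-Aa, a class II histocompatibility gene, at most 0.0428 CPM. The T cell list summed to at most 84.5 CPM, the macrophage list to at most 99.0 CPM and the neutrophil list to at most 0.434 CPM. The plasma cell list summed to between 1217 and 1947 CPM and the dendritic cell list to between 189 and 579 CPM. The mean summed dendritic cell level went from 526 CPM in the first hour to 380 CPM at 2 and 3 h in the stimulated arm and from 482 to 337 CPM in the untreated arm. Between the first hour and the 2 and 3 h libraries the mean summed B cell level went from 5019 to 4443 CPM in the stimulated and from 5083 to 4436 CPM in the untreated arm, and the part of either list in the results below was not tested. In bulk RNA, fewer cells of a type and less RNA per cell cannot be told apart.

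A cell that meets oxidants, metals or misfolded protein raises a small set of protective transcripts within hours. NFE2L2 drives genes of glutathione and thioredoxin metabolism and of haem breakdown, MTF1 drives metallothioneins, and HSF1 drives chaperones. Such responses are commonly brief, because the products act back on the regulators that turned the genes on. SMAD and Notch signalling work in a similar loop, in which their target genes include inhibitors of the same pathway.

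As a group the genes rose together and came down together in the 2 arms. At 0 min they made up 1.12% (stimulated) and 1.18% (untreated) of all counts, and at 1 h 1.43% and 1.54%. At 2 h the share was 2.24% and 2.30%, and at 3 h 2.41% and 2.34%. It fell to 1.62% and 1.64% at 6 h and was 1.17% in both arms at 48 h. The median member stood 0.84 above its 0 min value on the log2 scale at 2 h and 0.96 above it at 3 h in the stimulated arm, and 0.83 above it at both times in the untreated arm. The median of all 9584 eligible genes stood between 0.10 and 0.17 below 0 min at these times, on the same scale. The stimulated libraries of 2, 3 and 6 h were sequenced in lane 4 and those of 0 min and 1, 12 and 24 h in lane 2. The untreated libraries of 2 and 3 h came from lanes 2 and 3 and those of 0 min and 1, 12 and 24 h from lane 1, and the part of lane in the rise was not tested.

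**Figure D1:**
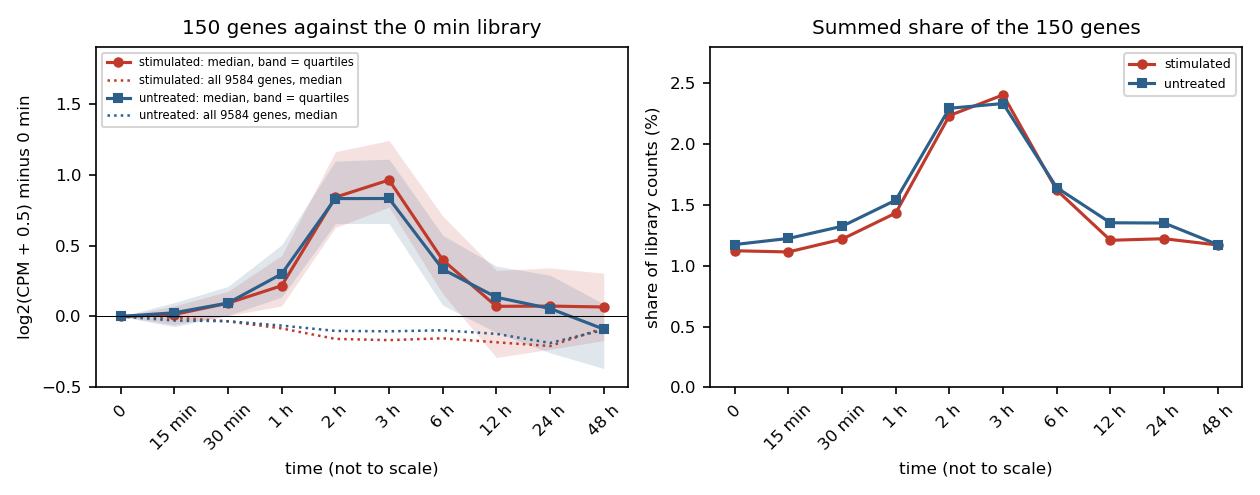
Course of the 150 genes in the 10 stimulated (red circles) and 10 untreated (blue squares) libraries; times are evenly spaced and not to scale. Left, median log2(CPM + 0.5) minus the 0 min library of the same arm with the quartiles over genes as a band, and dotted lines for the median of all eligible genes. Right, the genes' summed share of the library's counts in percent, which is highest at 3 h in both arms (2.41% and 2.34%).

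Scores ran from 2.35 for Mt2 to 0.44 for Sdhaf1, with a median of 0.57, which is a 1.49-fold rise over the higher baseline in the weaker arm. Only 13 genes reached a score of 1. The rise was larger in the stimulated arm for 95 of the 150 and larger in the untreated arm for 55. The limit of the group fell in a dense range of values: Nqo1 (0.44), Usp12 (0.44) and Sdhaf1 (0.44) were the last inside, and Ppp1r3b (0.44), Chml (0.43) and Mier2 (0.43) the first outside. Under 8 other ways of scoring, between 115 and 145 of the 150 stayed members, and 24 or 25 of the 25 highest-scoring genes did.

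The highest-scoring genes had many functions. Map1a, a microtubule-associated protein, went from 21.1 CPM at 0 min to 120 at 2 h and 151 at 3 h in the stimulated arm, and was at 12.1 CPM at 12 h. In the untreated arm it went from 27.9 to 223 and 254 CPM and was at 36.5 CPM at 12 h. Nol4l, a nucleolar protein gene, was back near its start by 6 h: it had 11.8, 62.3 and 86.9 CPM at 0 min, 2 h and 3 h in the stimulated arm and 14.7 CPM at 6 h. The untreated values of Nol4l were 14.9, 66.6 and 44.3 CPM and then 12.3 CPM. Ccne2, which encodes cyclin E2 of the G1 to S transition, went from 16.4 to 71.8 and 90.2 CPM in the stimulated and from 19.3 to 80.2 and 75.6 CPM in the untreated arm. Slc5a3, a transporter of the osmolyte myo-inositol, went from 21.6 to 96.0 CPM at 3 h in the stimulated and from 21.4 to 92.1 CPM in the untreated arm. In each of these 4 genes the lower of the 2 and 3 h libraries was above every library of the first hour in its arm. The genes were chosen on these same libraries, so nothing is read from that order.

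**Figure D2:**
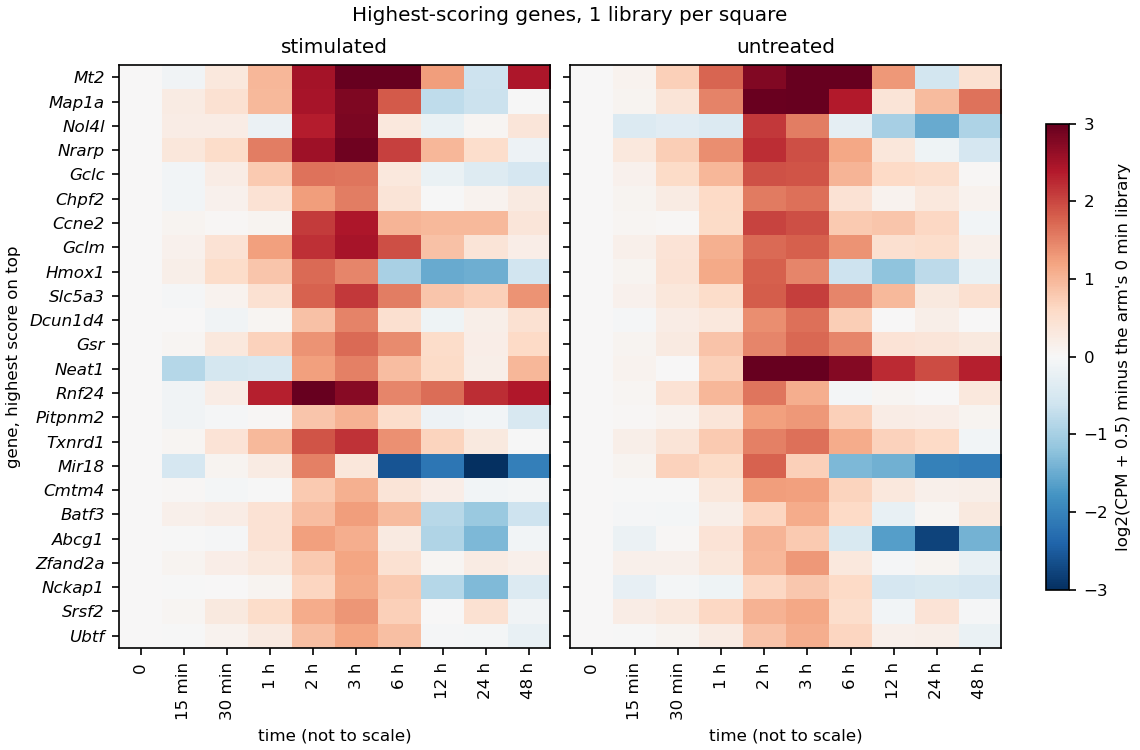
The named genes among the 25 of highest score, in rows, over the 10 times of the stimulated (left) and untreated (right) arm; each square is 1 library, and colour is log2(CPM + 0.5) minus the 0 min library of the same arm, drawn between -3 and 3. The red columns at 2 and 3 h are what the genes were chosen for; rows differ in when they leave the peak and in the blue values that follow it, as for Hmox1, Abcg1 and Mir18.

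Glutathione synthesis and recycling stood near the top. A list of glutathione, thioredoxin and NFE2L2 target genes, written after the members had been seen, had 38 eligible genes, of which 7 were members (18.4%, against 1.57% of all eligible genes, by choice of the list). Gclc and Gclm encode the catalytic and the modifier subunit of glutamate-cysteine ligase, the rate-limiting enzyme of glutathione synthesis. Gclc (chromosome 9, 77754535 to 77794485, GRCm38) had 119 CPM at 0 min, 370 at 2 h, 365 at 3 h and 149 at 6 h in the stimulated arm. In the untreated arm it had 123, 463, 456 and 247 CPM at the same times. Gclm (chromosome 3, 122245557 to 122270732) showed the opposite order of the arms: 43.6, 200 and 244 CPM at 0 min, 2 h and 3 h in the stimulated and 47.8, 155 and 166 CPM in the untreated arm. At 6 h Gclm was still at 169 and 122 CPM. The 2 subunits of the same enzyme thus had their higher peak in different arms.

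Gsr, which reduces oxidised glutathione, and Txnrd1, which reduces thioredoxin, were also members. Gsr went from 20.2 to 66.2 CPM at 3 h in the stimulated and from 21.2 to 71.5 CPM in the untreated arm. Txnrd1 went from 268 to 1207 CPM in the stimulated and from 292 to 915 CPM in the untreated arm at 3 h. Hmox1, the inducible haem oxygenase, was highest at 2 h, at 182 and 233 CPM from 55.4 and 66.5 CPM at 0 min. It then fell below its start, to 28.0 and 43.0 CPM at 6 h and to 19.1 and 28.6 CPM at 12 h. Slc48a1, a haem transporter, peaked at 60.2 and 74.8 CPM at 3 h from 38.8 and 40.1 CPM at 0 min. Nqo1, a quinone reductase and textbook NFE2L2 target, ran later than the rest: it had 9.52 and 8.08 CPM at 3 h and 11.8 and 12.4 CPM at 6 h, from 1.99 and 2.17 CPM at 0 min.

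Other genes of the list were outside the group, with scores on either side of 0. Osgin1 had a score of -2.28, Txn1, thioredoxin itself, -0.59, and Gss, the second enzyme of glutathione synthesis, -0.40. The ferritin genes Ftl1 and Fth1 had scores of 0.31 and 0.26, above 0 and below the limit. Nfe2l2 itself had a score of -0.09 and Keap1, its inhibitor, 0.07. Of the 38 eligible genes 12 had a score above 0, and 1502 of the 9584 eligible genes did.

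**Figure D3:**
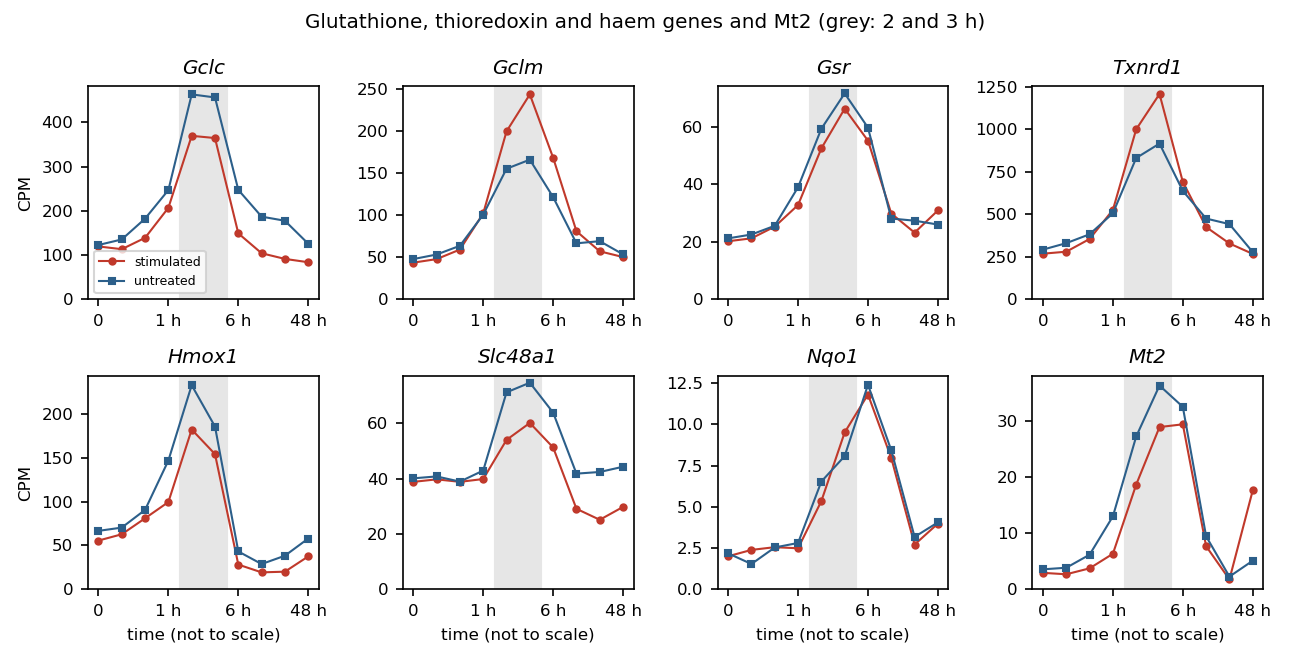
CPM of 7 members with roles in glutathione, thioredoxin and haem metabolism and of Mt2 at the 10 times (evenly spaced, not to scale) in the stimulated (red circles) and untreated (blue squares) arm, each panel on its own axis from 0, with 2 and 3 h shaded. Each point is 1 library; Hmox1 ends its peak before 6 h, whereas Nqo1 is highest at 6 h in both arms, at 11.8 and 12.4 CPM.

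Mt2, a metallothionein that binds zinc and copper, had the highest score (chromosome 8, 94172664 to 94173568, GRCm38, coding, 3 exons). Its stimulated libraries held 2.90, 2.64, 3.70, 6.30, 18.7, 28.9, 29.4, 7.65, 1.72 and 17.6 CPM from 0 min to 48 h, and its untreated libraries 3.53, 3.81, 6.14, 13.0, 27.2, 36.3, 32.5, 9.42, 2.23 and 5.06 CPM. Mt2 was thus high from 2 to 6 h, near its start at 24 h and high again at 48 h in the stimulated library alone, a single library. Mt2 was the 1 member among 12 eligible genes of a list of metallothionein and zinc genes, also written after the members had been seen. On it Mtf1, which encodes the metal-responsive factor, had a score of -0.68 and Slc39a6, a zinc importer, 0.26.

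The promoters of Mt2, Gclm and Txnrd1 are shown because the elements known for such genes can be read in them. The windows are RefSeq sequence (GRCm38.p6), 5′ to 3′ on the gene's strand and within the 250 bases before an annotated start. Capitals in the Mt2 line mark the metal response element (TGCACNC or TGCGCNC on either strand), and in the other lines the antioxidant response element (TGACNNNGC on either strand).
Mt2, chr8:94172375-94172594, + strand: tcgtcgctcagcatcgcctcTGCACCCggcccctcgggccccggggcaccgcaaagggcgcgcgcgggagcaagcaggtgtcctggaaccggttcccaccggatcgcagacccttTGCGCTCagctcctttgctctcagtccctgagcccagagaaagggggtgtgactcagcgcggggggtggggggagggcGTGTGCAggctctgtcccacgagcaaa
Mt2, chr8:94172519-94172567, + strand: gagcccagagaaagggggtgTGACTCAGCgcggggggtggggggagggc
Gclm, chr3:122245403-122245451, + strand: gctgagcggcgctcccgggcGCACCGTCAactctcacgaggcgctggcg
Txnrd1, chr10:82859094-82859142, + strand: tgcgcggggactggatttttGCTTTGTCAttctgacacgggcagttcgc
Mt2 held 3 matches of the metal element, from 223 to 50 bases before the start, and 1 of the antioxidant element 79 bases before it. The match lay 134 bases before the start in Gclm and 92 in Txnrd1. Txnrd1 had 3 promoter sequences, and the window shown lies inside the annotated gene (chromosome 10, 82833951 to 82897712). No promoter sequence was available for Gclc, Hmox1, Gsr and Slc48a1.

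Both elements were also common in other promoters. A promoter of the table was matched for 119 members and 7649 eligible genes. The antioxidant element was found in 15.1% of the members and 14.1% of the eligible genes, and the metal element in 41.2% and 34.8%. Nqo1 has a promoter in the table without a match of the antioxidant element in this window. The E-box CACGTG was found in 7.56% and 10.6%, and the cAMP response element TGACGTCA in 4.20% and 3.32%. A match is a stretch of letters, and binding was not measured.

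Of 41 eligible genes of the heat shock and chaperone list 4 were members, and 12 had a score above 0. Dnajb1, a cochaperone of HSP70, had 71.3 CPM at 0 min, 152 at 3 h and 91.9 at 6 h in the stimulated arm, and 77.9, 189 and 85.1 CPM in the untreated arm. Dnaja1, also a cochaperone of HSP70, went on rising after the peak: 93.0, 335 and 463 CPM at 0 min, 3 h and 6 h in the stimulated and 97.1, 360 and 382 CPM in the untreated arm. Ahsa2, related to the HSP90 activator AHSA1, had 73.8 CPM at 3 h and 107 at 6 h in the stimulated arm, and 89.7 and 87.3 CPM in the untreated arm. Bag3, a cochaperone of selective autophagy, rose between 2 and 3 h, from 14.8 to 23.9 CPM in the stimulated and from 17.5 to 25.4 CPM in the untreated arm. Zfand2a, an arsenite-inducible gene of protein quality control, had 54.8 and 62.0 CPM at 3 h from 23.9 and 24.9 CPM at 0 min. Large chaperones outside the group had scores on either side of 0. Hsp90aa1 had a score of -0.06, Hspd1 -0.61 and Hspa4 -0.60, whereas Hspa8 had 0.19 and Hsph1 0.39.

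Of the unfolded protein response 2 of 28 eligible genes were members. Hspa5, the chaperone BiP of the endoplasmic reticulum, had 1635 CPM at 0 min, 3182 at 3 h and 1825 at 12 h in the stimulated arm, and 1684, 3019 and 1917 CPM in the untreated arm. Ern1, the sensor IRE1, had 21.7 and 36.4 CPM at 0 min and 3 h in the stimulated and 21.7 and 41.4 CPM in the untreated arm. Hyou1 and Manf, partner genes of Hspa5, had scores of 0.32 and 0.30, and Herpud1 and Dnajb9 -1.19 and -1.24. The next lines show the ER stress element of Hspa5 (CCAAT, 9 bases and CCACG) and the pairs of heat shock units (GAANNTTC or TTCNNGAA) of Dnaja1 and Zfand2a, in capitals, from the same table.
Hspa5, chr2:34772005-34772063, + strand: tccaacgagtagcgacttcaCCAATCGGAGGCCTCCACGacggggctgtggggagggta
Dnaja1, chr4:40722324-40722371, + strand: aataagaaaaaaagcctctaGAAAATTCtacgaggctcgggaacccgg
Zfand2a, chr5:139484660-139484707, - strand: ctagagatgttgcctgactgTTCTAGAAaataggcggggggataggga
The windows of Hspa5 and Dnaja1 lie inside their annotated genes, which begin at 34771970 on chromosome 2 and at 40722150 on chromosome 4. Dnaja1 had 3 promoter sequences. The ER stress element was found in 1 of 119 members, Hspa5, and in 14 of 7649 eligible genes (0.183%). A pair of heat shock units was found in 9.24% of the members and 11.9% of the eligible genes. The promoters of Dnajb1, Bag3 and Ahsa2 held no such pair in the 250 bases searched. A run of 3 units was found in 0 of 119 members and in 31 of 7649 eligible genes (0.405%).

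Single members came from signalling pathways. Nrarp, a Notch target that promotes loss of the Notch intracellular domain, had 4.37 CPM at 0 min, 28.0 at 2 h, 36.1 at 3 h and 19.7 at 6 h in the stimulated arm. In the untreated arm it had 5.07, 25.2, 20.9 and 12.0 CPM. The TGFb and SMAD list had 3 of its 18 eligible genes among the members, and 6 of the 18 had a score above 0. Tgfbr1, the type I TGFb receptor, had 180, 476 and 600 CPM at 0 min, 2 h and 3 h in the stimulated and 170, 357 and 278 CPM in the untreated arm. Ski, a corepressor of SMAD proteins, had 40.4, 139 and 124 CPM in the stimulated and 40.0, 72.7 and 69.0 CPM in the untreated arm. Smurf1, a ubiquitin ligase of SMADs and TGFb receptors, had 36.6, 75.3 and 68.2 CPM in the stimulated and 39.5, 71.2 and 58.1 CPM in the untreated arm. Their relatives were outside the group: Smurf2 had a score of 0.38, Smad7 0.22, Tgfbr2 -0.12, Skil -0.52 and Tgif1 -1.23.

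A few members act in DNA synthesis. Cdc6, which loads the replicative helicase, Slbp, the histone mRNA binding protein, and Rrm2, a subunit of ribonucleotide reductase, were members. At 3 h Cdc6 had 194 and 188 CPM from 110 and 109 CPM at 0 min. Slbp had 186 and 169 CPM at 3 h from 94.0 and 102 CPM. Rrm2 had 371 and 373 CPM at 3 h from 119 and 120 CPM. The mitosis list had 0 of 44 members, and the DNA replication list 2 of 42, Cdc6 and Slbp. The splicing list had 1 of 44 and the ribosome biogenesis list 1 of 85. Srsf2, a splicing factor, had 1153 and 1140 CPM at 3 h from 463 and 509 CPM, and Ubtf, a factor of RNA polymerase I, 773 and 755 CPM from 341 and 352 CPM.

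Noncoding RNAs were also among the members. Neat1, a nuclear long noncoding RNA that builds paraspeckles, had 66.4 CPM at 0 min and 156 and 190 CPM at 2 and 3 h in the stimulated arm. In the untreated arm it went from 74.5 to 633 and 667 CPM. Mir17hg, the host transcript of the miR-17-92 cluster, was at 323 CPM at 0 min, 674 at 2 h and 305 at 3 h in the stimulated arm and at 304, 726 and 394 CPM in the untreated arm. Mir18 is a separate row of the table for a hairpin within Mir17hg (chromosome 14, 115043851 to 115043946, inside 115042879 to 115046727, GRCm38). Its reads and those of the host cannot be told apart in poly-A RNA, and the row says nothing of the mature miRNA, shown here from RefSeq (GRCm38.p6) with its seed, bases 2 to 8, in capitals.
mmu-miR-18a-5p: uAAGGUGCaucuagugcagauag
The Mir18 row was at 6.60, 19.8, 8.47 and 0.678 CPM at 0 min, 2 h, 3 h and 6 h in the stimulated and at 7.76, 27.8, 13.0 and 2.73 CPM in the untreated arm.

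Members differed in the exact time of the peak. The 3 h value was above the 2 h value in 114 of 150 genes in the stimulated and in 87 in the untreated arm, and in 83 in both arms. In 32 genes 2 h was above 3 h in both arms, among them Hmox1, Mir17hg and Abcg1. The highest of all 10 libraries was at 3 h for 104 members in the stimulated arm, at 2 h for 35, at 6 h for 8 and at another time for the other three. In the untreated arm these numbers were 85 at 3 h, 61 at 2 h, 3 at 6 h and 1 at 48 h. The rise had begun by 1 h in part of the group: the median member stood 0.22 above its 0 min value at 1 h in the stimulated and 0.30 above it in the untreated arm, on the log2 scale, with no test, since 1 h served to choose the genes.

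At 6 h, a time that did not enter the score, the group stood lower than at 2 and 3 h. The median member kept 27.7% of its log2 rise in the stimulated and 18.7% in the untreated arm. The baseline and the mean of 2 and 3 h in this measure did serve to choose the genes. The fall is therefore a description, with no test and no background over all genes. In the stimulated arm 37 members were at or under the baseline, 103 between it and the mean of 2 and 3 h, and 10 above that mean. The untreated arm had 45, 99 and 6. Ccne2 kept 3.09% and 4.95%, whereas Gsr kept 91.6% and 89.7% and Nckap1, a subunit of the WAVE actin complex, 86.5% and 85.1%. Hmox1, Abcg1 and Mir17hg differed between themselves: Hmox1 and Mir17hg were under the baseline in both arms, and Abcg1, a cholesterol exporter, kept 15.9% in the stimulated arm and was under it in the untreated arm. Members above the peak mean at 6 h in both arms numbered 5, namely Mt2, Dnaja1, Ahsa2, Nqo1 and Sdhaf1.

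The libraries of 6 and 48 h entered the choice of the genes only through the mean CPM and not through the score. They were compared directly, with the 2 arms as replicates and both libraries of an arm in the same sequencing lane. By edgeR's quasi-likelihood test over all 20 libraries 80 of the 150 genes were higher at 6 h than at 48 h and 2 were lower (adjusted p under 0.05), and 68 did not pass. Of the 12139 genes tested 14.8% were higher and 15.2% lower. The median log2 difference was 0.45 over members and -0.01 over all genes tested. Of the members 123 were higher at 6 h in the stimulated arm, 137 in the untreated arm and 117 in both, against 44.4%, 50.1% and 35.2% of the eligible genes. The genes were chosen as high at 2 and 3 h and low at 12 and 24 h, times next to those compared, so the 2 times are not independent of the choice and the count is given beside its background only.

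Nrarp stood highest in this comparison, 4.42-fold (log2 2.14 ± 0.29 SE, edgeR adjusted p = 0.00035), with 19.7 and 12.0 CPM at 6 h and 3.89 and 3.43 CPM at 48 h. Prss23, a serine protease, followed at 2.00 ± 0.42 (adjusted p = 0.0041), with 4.87 and 10.6 CPM at 6 h and 0.868 and 3.31 CPM at 48 h. Dnaja1 was 3.86-fold higher (1.95 ± 0.13, adjusted p = 8.4e-06). In all 3 genes both 6 h libraries were above both 48 h libraries. Nqo1 (1.63 ± 0.19, adjusted p = 0.00015) and Gclm (1.52 ± 0.21, adjusted p = 0.00034) completed the 5 largest. The mean of Nqo1 over all libraries was 5.12 CPM, just above the limit of 5 CPM, and included its 6 h libraries, its highest. Its level at 6 h thus helped to choose it, and nothing is read from its p-value. Of the 7 glutathione, thioredoxin and haem members 6 were higher at 6 h and 1, Hmox1, did not pass, with 28.0 and 43.0 CPM at 6 h and 37.3 and 57.7 CPM at 48 h. Over the whole list 14 of 42 tested genes were higher and 4 lower.

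Of the 4 chaperone members Dnaja1, Ahsa2 (1.32 ± 0.14) and Dnajb1 (1.02 ± 0.11) were higher at 6 h, and Bag3 did not pass, with 12.7 and 12.5 CPM at 6 h and 12.3 and 10.0 CPM at 48 h. Over the list of 43 tested chaperone genes 23 were higher and 1 lower. Mt2 was 2.69-fold higher (1.43 ± 0.45, adjusted p = 0.032), with a ratio of 2.57 on the log2 scale in the untreated and 0.72 in the stimulated arm, whose 48 h library was high. Slbp (0.31 ± 0.08) and Cdc6 (0.27 ± 0.07) were higher at 6 h, as were 17 of 42 tested genes of the DNA replication list, with 5 lower. Ccne2 was higher by 0.81 ± 0.19, with 8 of 32 genes of the G1 list higher and 5 lower. Rrm2 was higher by 0.55 ± 0.08, with 11 of 39 genes of the nucleotide synthesis list higher and 4 lower. Fitted to the 4 libraries alone, Slbp, Cdc6, Chpf2, Zfand2a and Kmt2b no longer passed, and 61 members were higher (40.7%, against 6.77% of genes tested). None of the 3 TGFb and SMAD members passed, against 3 of 21 tested genes of that list higher and 1 lower. The 2 members lower at 6 h were Xylt2, a xylosyltransferase of proteoglycan synthesis (-0.56 ± 0.12, adjusted p = 0.0051), and a gene model without a name.

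**Figure D4:**
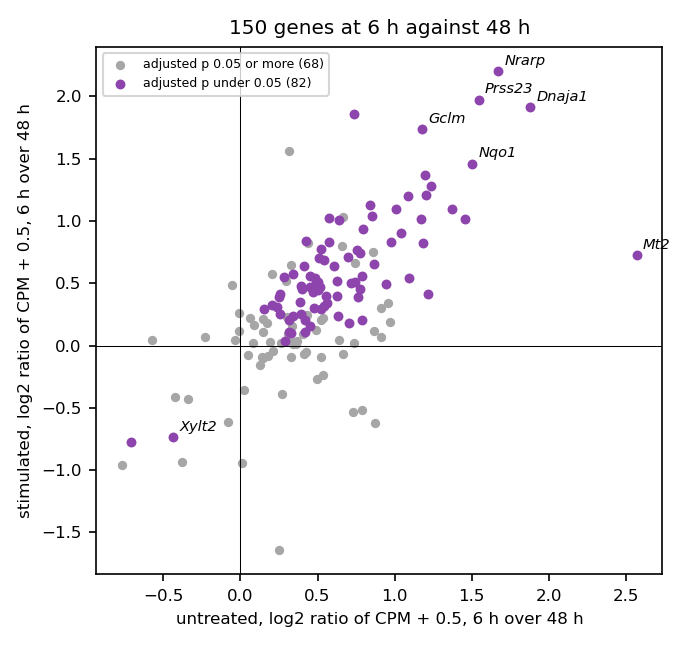
Log2 ratio of CPM + 0.5 at 6 h over 48 h in the untreated (horizontal) and stimulated (vertical) arm for the 150 genes, each point 1 gene and each ratio from 2 libraries; purple marks the 82 genes with an edgeR adjusted p under 0.05 and grey the other 68. Most points lie in the upper right, where both arms are higher at 6 h (117 genes), and Mt2 lies far to the right, at 2.57 in the untreated and 0.72 in the stimulated arm.

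Few members passed the threshold between the arms in the first hour by edgeR. Fold changes between arms are stimulated over untreated, from edgeR's quasi-likelihood test with time as a factor over the 18 libraries after 0 min. At 15 min, 30 min and 1 h 0 of 150 members were higher, against 0.598% of 12042 genes tested, and 4 were lower, against 1.64%. At an unadjusted p under 0.05 there were 41 in either direction (27.3%, against 16.7% of all genes tested). By DESeq2 0 were higher, against 0.93% of genes, and 14 lower (9.33%, against 2.61%). The rule used the libraries of these times in both arms, so nothing is read from the difference between these shares. Neat1 was lower by a log2 fold change of -1.06 ± 0.11 (adjusted p = 0.0015), at 36.3, 45.5 and 47.7 CPM against 79.7, 75.5 and 122 CPM, with no overlap. The others were Slc20a1, a phosphate transporter (-0.47 ± 0.08), Sdccag3 (-0.31 ± 0.06) and Srcap, a chromatin remodeller (-0.28 ± 0.05). Slc20a1 had 79.9, 131 and 166 CPM in the stimulated and 134, 180 and 200 CPM in the untreated arm, so that the ranges overlap although each pair goes the same way. Without 15 min or without 30 min only Neat1 of these 4 stayed past the threshold.

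At 2, 3 and 6 h 34 members were higher in the stimulated arm (22.7%, against 10.2% of 12042 genes tested) and 8 were lower (5.33%, against 10.3%). The rule used the 2 and 3 h libraries of both arms, so these shares are a description and nothing is read from their difference to all genes. The median log2 fold change was 0.06 over members and 0.01 over all genes tested. The split depends on the scaling: with library totals as the only scaling 21 were higher and 18 lower, and the median of all genes tested lay at -0.07. Rnf24, a RING finger ubiquitin ligase gene, had the largest difference, 3.85-fold (1.94 ± 0.25, adjusted p = 0.00059), with 250, 136 and 56.4 CPM against 56.8, 40.0 and 17.6 CPM. Gadd45b, a stress gene upstream of p38 and JNK signalling, had 1.29 ± 0.33 (adjusted p = 0.018), Kcnh4, a potassium channel, 1.21 ± 0.13, Rhof, a small GTPase of filopodia, 1.15 ± 0.13 and Hoxd4, a homeobox gene, 1.10 ± 0.23. Every stimulated library of Kcnh4 (15.0 to 24.3 CPM) was above every untreated library (6.98 to 10.1 CPM). Without 3 h the number of higher members was 9 (6.0%, against 3.5% of all genes tested). Gadd45b and Hoxd4 did not pass without 3 h, nor did Gadd45b without 6 h.

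All 3 TGFb and SMAD members were higher in the stimulated arm at 2 to 6 h, and 8 of 21 tested genes of that list were, with 0 lower. Tgfbr1 had 0.89 ± 0.14 (adjusted p = 0.0016), Ski 0.79 ± 0.10 (adjusted p = 0.00065) and Smurf1 0.22 ± 0.06 (adjusted p = 0.027). Smurf1 did not pass with library totals as the only scaling, nor without any of the 3 times. Furin, the protease that cuts pro-TGFb, had 0.57 ± 0.13 and Nrarp 0.62 ± 0.13. For Nrarp the ranges overlapped, from 19.7 to 36.1 CPM in the stimulated and from 12.0 to 25.2 CPM in the untreated arm, and the call was lost without 3 h or without 6 h.

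Glutathione and haem members went both ways between the arms. Gclm (0.54 ± 0.09, adjusted p = 0.0028) and Txnrd1 (0.33 ± 0.08, adjusted p = 0.014) were higher in the stimulated arm. Gclc (-0.39 ± 0.08, adjusted p = 0.0091), Hmox1 (-0.33 ± 0.09, adjusted p = 0.028) and Slc48a1 (-0.27 ± 0.06, adjusted p = 0.0088) were lower. Gsr and Nqo1 did not pass. The calls of Txnrd1, Hmox1 and Slc48a1 were each lost on leaving out 2 h. Over the whole list 7 of 41 tested genes were higher and 4 lower. The other members lower in the stimulated arm were Neat1 (-1.86 ± 0.11, adjusted p = 5.7e-06), Map1a (-0.78 ± 0.12), Prss23 (-0.58 ± 0.16), Srcap (-0.21 ± 0.05) and Kmt2b, a histone methyltransferase (-0.18 ± 0.04). Map1a and Prss23 were already lower in the stimulated library at 0 min, by -0.40 and -0.42, and Hmox1 by -0.26. Taken relative to the 0 min pair, which is 1 library per arm, 0 members were higher and 1, Neat1, was lower at 2 to 6 h, and of all genes tested 0.189% were higher and 0.165% lower.

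**Figure D5:**
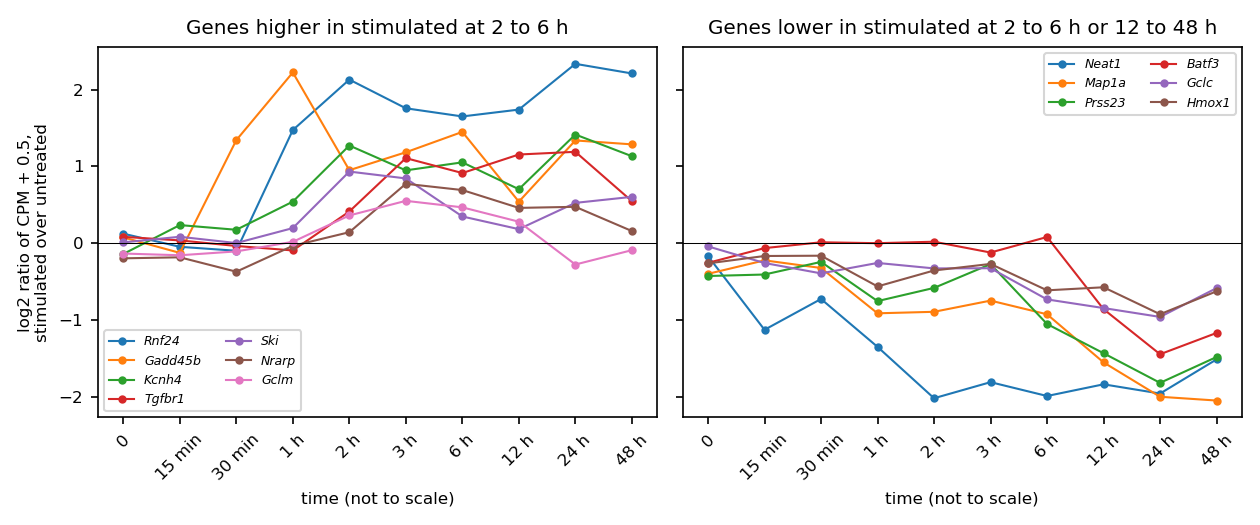
Log2 ratio of CPM + 0.5, stimulated over untreated, at the 10 times (evenly spaced, not to scale) for 7 members higher in the stimulated arm at 2, 3 and 6 h (left) and 6 members lower at those times or at 12 to 48 h (right); each point is the ratio of 2 libraries. At 1 h Rnf24 (1.47) and Gadd45b (2.22) are above 0 and Tgfbr1 (-0.09) and Gclm (0.02) near it; Batf3 goes from 0.08 at 6 h to -0.86 at 12 h.

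At 12, 24 and 48 h, after the peak, 33 members were higher in the stimulated arm (22.0%, against 17.8% of genes tested) and 27 lower (18%, against 18.3%). These shares were near the background, and the rule used the 12 and 24 h libraries. The members higher at 2 to 6 h and here shared 20 genes, 58.8% of the 34 and 60.6% of the 33. Over all genes tested the shared calls were 57.9% and 33.1%. The lower members shared 7, 87.5% of the 8 and 25.9% of the 27, against 67.2% and 37.7% over all genes tested. Rnf24 was 4.46-fold higher (2.16 ± 0.26, adjusted p = 9.5e-05), with 65.6, 95.2 and 108 CPM against 19.3, 18.5 and 23.0 CPM. Cdk5r1, an activator of CDK5 (1.63 ± 0.35), Abcg1 (1.27 ± 0.13), Kcnh4 (1.19 ± 0.14) and Pdgfa, a growth factor (1.12 ± 0.20), were the next largest. Abcg1 was at 22.4 to 54.6 CPM in the stimulated and 7.75 to 20.6 CPM in the untreated arm, and both ranges lay below its 0 min values of 57.7 and 56.0 CPM.

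Map1a had the largest negative difference, 3.66-fold lower (-1.87 ± 0.13, adjusted p = 4.7e-06), with 12.1, 13.3 and 20.9 CPM against 36.5, 54.3 and 87.8 CPM. Prss23 (-1.78 ± 0.18), Neat1 (-1.73 ± 0.11), Batf3, a transcription factor of the AP-1 family (-1.17 ± 0.11), and Mir17hg (-1.10 ± 0.19) followed. Batf3 had the same course in both arms up to 6 h, 28.3 and 26.7 CPM there, and parted at 12 h to 7.94 and 14.8 CPM. Scd1, a fatty acid desaturase, was lower by -0.98 ± 0.08 (adjusted p = 9.3e-06), with 297, 356 and 447 CPM against 586, 682 and 972 CPM. Gclc (-0.76 ± 0.08), Hmox1 (-0.68 ± 0.10) and Slc48a1 (-0.58 ± 0.06) stayed lower in the stimulated arm, whereas Gclm and Txnrd1 did not pass. All 3 TGFb and SMAD members were higher here too, Tgfbr1 by 1.00 ± 0.14, Ski by 0.48 ± 0.10 and Smurf1 by 0.45 ± 0.06, and of the 21 tested genes of their list 11 were higher and 3 lower. Relative to the 0 min pair 7 members were higher (4.67%, against 3.49% of genes tested) and 8 lower (5.33%, against 3.48%).

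Whether the difference between arms changed from the first hour to 2 to 6 h was tested in the same fit. It went up in 21 members (14%, against 3.57% of genes tested) and down in 1 (0.667%, against 2.81%), with a median of 0.14 over members and 0.00 over all genes. All times compared except 6 h entered the score that chose the genes, so nothing is read from the difference between these shares. Rnf24 (1.46 ± 0.35, adjusted p = 0.038), Rhof (0.96 ± 0.19), Tgfbr1 (0.90 ± 0.19), Kcnh4 (0.85 ± 0.19) and Slc20a1 (0.81 ± 0.11) went up most, and Neat1 went down (-0.80 ± 0.15). Slc20a1 crossed from lower to higher, at ratios of -0.74, -0.46 and -0.27 in the first hour and 0.19, 0.26 and 0.33 at 2, 3 and 6 h on the log2 scale. Lane 4 held stimulated libraries alone, those of 30 min and of 2, 3, 6 and 48 h. With lane as a term 4 members went up and 1 down, and over all genes tested 112 went up and 129 down, from 430 and 338 without it. Leaving out single times left between 2 and 12 members up. Without 30 min 2 members and 70 of all genes went up, without 3 h 2 and 72, and without 15 min 3 and 64, so that calls fell over all genes as well.

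Properties that the rule did not use are given beside those of the eligible genes, with no test. By GENCODE vM21 (GRCm38) 148 of them matched a gene and 145 were protein coding (98.0%, against 97.7% of eligible genes). Their median transcript had 3457 bases and a GC content of 53.6%, against 3038 bases and 49.98% for the eligible genes. The quartiles of GC content, 48.6% to 57.2% against 45.3% to 54.7%, overlap. The sequence TATTTAT, a core of AU-rich elements of unstable messages, was found in the 3′ untranslated part of 33.8% of the members and 29.1% of the eligible genes with an annotated part. Chromosome 2 held 24 members of 768 eligible genes (3.1%), chromosome 5 held 22 of 624 (3.5%) and chromosome 8 held 18 of 543 (3.3%). These shares lay above the 1.57% over all eligible genes, whereas chromosome 6 held 0 of 432. An exon of 41 members (27.7%, against 26.95%) overlaps an exon on the opposite strand, as for Map1a with Ppip5k1, Ccne2 with Ints8, Dnaja1 with Smu1 and Rnf24 with Pank2. The strand setting of the counts is not given in the sources used here, so the values of those genes are uncertain to that extent.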

How the data were processed

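The deposited files hold counts per gene for 20 poly-A libraries (TruSeq, per the labels' protocols), for which the submitters' processing notes name STAR, HTSeq and the builds GRCm38.p3 and mm10. Versions, filters and strand setting were not stated there. The submitters' sample sheet was not used. CPM were computed from raw totals and the members chosen with numpy and pandas. The count test was edgeR's quasi-likelihood test (version 4.0.16, R 4.3.3) with TMM scaling. It ran on genes that reached 1 CPM in 3 or more libraries, with p-values adjusted by Benjamini-Hochberg over all of them and a threshold of 0.05. The treatment fit had time as a factor and 1 coefficient per phase, and the 6 h against 48 h fit had time and arm. The SE is the log2 fold change divided by the square root of F. Fits were tested on simulated data.

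The members and lists were chosen with earlier results of these data known, and 2 lists (glutathione and NFE2L2, metallothioneins) after the members had been seen. Named are the 25 highest scores, the 5 largest calls each way per comparison, list members and genes at the limit, and a few others (Furin, Bag3's and Hspa5's relatives, Hsp90aa1 and other list genes outside the group) picked after their values were seen. Gene models without a name were counted and not named. Alternatives were other scalings (RLE, library totals), DESeq2 1.42.0, other filters, lane, times left out, the 0 min pair as reference, and other forms of the score.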

Additional observations from a re-analysis of the deposited data

Results flagged for a closer look

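For 9 named members the test of the change itself passed, from the first hour to 2 to 6 h, in the difference between arms (edgeR, adjusted p under 0.05). Values are on the log2 scale and positive where the stimulated arm gained. All times compared except 6 h entered the score that chose the genes. The calls are therefore a description, and nothing is read from them. The 9 are the named ones among the members called, whose share is given above beside that of all genes tested. The values were 1.46 for Rnf24, 0.96 for Rhof, 0.90 for Tgfbr1, 0.85 for Kcnh4, 0.81 for Slc20a1, 0.80 for Nrarp, 0.68 for Ski, 0.60 for Gclm and -0.80 for Neat1. With lane as a term Rnf24, Rhof, Kcnh4, Ski and Gclm did not pass, at adjusted p from 0.064 to 0.12, and all 9 kept their sign. Slc20a1 passed without each of the 6 times in turn, the other 8 not without each of them. Calls over all genes fell as well with that term, from 430 up and 338 down to 112 and 129.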

How the results depend on the processing

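All named log2 fold changes kept their direction under every alternative: of 808 such values 664 kept their side of the threshold and 144 lost it, 44 of these relative to the 0 min pair. Of the scores of the named genes among the 25 highest, 33 of 48 moved by less than the spread between arms. Depth was not compared between members.

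Shares of members are given against those of all genes tested under the same setting. Early, without a filter 3 members were higher (2.0%, against 1.01%) and 17 lower (11.3%, against 1.66%). By DESeq2 14 were lower (9.33%, against 2.61%), and relative to the 0 min pair 0 were (against 0.0%). With a time left out 0 to 1 were higher (up to 0.667%, against 0.0335% to 0.309%). Lower were 1 to 2 (0.667% to 1.33%, against 0.0418% to 0.517%). Middle, library totals gave 21 higher and 18 lower, the 0 min pair 0 and 1, and a time left out 9 to 24 higher and 5 to 6 lower. Late, the 0 min pair gave 7 higher (4.67%, against 3.49%) and 8 lower (5.33%, against 3.48%). A time left out gave 22 to 45 higher (14.7% to 30.0%, against 13.3% to 18.4%). It gave 17 to 28 lower (11.3% to 18.7%, against 12.1% to 17.2%). Middle minus early, members higher were 12 with library totals (8.0%, against 1.98%) and 4 with lane (2.67%, against 0.93%). With a time left out they were 2 to 12 (1.33% to 8.0%, against 0.534% to 2.83%). Members lower were 2 without a filter (1.33%, against 2.68%). With a time left out 0 to 1 were lower (up to 0.667%, against 0.552% to 2.95%). Past 2-fold without a test, 6 h exceeded 48 h in 20 members in the stimulated and 18 in the untreated arm, and lay below it in 1 and 0; of the 9584 eligible genes 102 (1.06%) and 95 (0.991%) were higher and 401 and 116 lower. Of the 150 members, the alternatives in scoring kept 115 (TMM-scaled CPM) to 145 (pseudocount 2).

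Lane could not be fitted for the early, middle and late differences, and at no time did the arms share a lane. The 0 min pair cancels in middle minus early. The arms were paired by time through the time factor; no further replicate block was fitted, because the labels number no replicates.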
